A study of Homo sapiens with 6 samples.

Results

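The genes of cholesterol and fatty acid synthesis were followed in BaF3-T315I cells after exposure to I13, a histone deacetylase inhibitor. This murine line carries the T315I-mutated form of BCR-ABL. It is usually described as pro-B, a type that neither the labels nor the study give. The set holds 30 genes chosen by symbol from the known pathway, all of which were listed among the 22413 genes of the deposited table. It comprises 7 genes of the mevalonate steps, 12 of the squalene and sterol steps, 5 that code for the SREBP factors and the proteins that hold or escort them, 2 of sterol transfer and esterification, and 4 of fatty acid synthesis and desaturation. The mRNA of 3 control samples and of 3 samples treated with I13 (1.1 µM, 48 h) was sequenced, and the expression level is given as FPKM, a level per kilobase of the gene that is also scaled to the size of each library.

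Control and I13 samples shared the cell line and the T315I form of BCR-ABL, the fusion kinase of chronic myeloid leukemia whose T315I form resists imatinib. The labels describe the other samples as treated with control and give neither a vehicle nor a time for them. All samples come from 1 transfected line, and the sources do not say whether it is a single clone. The study says in general terms that its experiments were independent and repeated, but neither its account of the sequencing nor the labels say whether these replicates were separate cultures, so p-values measure only the spread between these samples, which may be technical. Control replicates 1, 2 and 3 held 17722950, 17632514 and 17622311 fragments. I13 replicates 1, 2 and 3 held 17623236, 16762119 and 17506309 fragments. Depth therefore differed little between the groups.

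Cholesterol is built from acetyl-CoA through mevalonate, isopentenyl diphosphate, farnesyl diphosphate and squalene, which is closed into lanosterol and then trimmed to cholesterol. The enzymes are regulated together. When sterol is abundant in the endoplasmic reticulum, Insig proteins hold Scap and the SREBP precursors there, and when sterol falls, Scap escorts the precursors to the Golgi, where proteases free the active factors. SREBP-2, the product of Srebf2, mainly drives genes of sterol synthesis, and SREBP-1, the product of Srebf1, mainly drives genes of fatty acid synthesis. In dividing blood cells these pathways supply membrane lipid and the isoprenoid groups that anchor small GTPases.

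The line was checked against markers of its type. Csf2rb, the common beta chain of the IL-3 receptor family, averaged 329 ± 118 FPKM (SD, n = 3) in control and 588 ± 218 FPKM in I13 samples. Its near-identical copy Csf2rb2 averaged 286 ± 110 and 572 ± 194 FPKM, and reads of this pair may be split uncertainly between the copies. When same-numbered samples were compared, limma called both elevated, with log2 fold changes of 0.83 and 1.02 and adjusted p of 0.0313 and 0.0312. Without this pairing neither was called, with adjusted p of 0.22 and 0.165 from limma. Ptprc, the leukocyte phosphatase CD45, averaged 10.6 ± 0.373 and 14.4 ± 0.801 FPKM, and Il3ra averaged 11.4 ± 2.28 and 14.4 ± 3.31 FPKM. These markers of a blood cell with IL-3 receptors were thus well expressed. Of the pro-B genes, Cd79a averaged 21.6 ± 6.55 FPKM in control and 25.2 ± 2.1 FPKM in I13 samples. Cd79b averaged 5.28 ± 1.69 and 4.77 ± 1.75 FPKM. Their log2 fold changes of 0.27 and -0.15 went in opposite directions, and neither was called. Vpreb1, Igll1 and Ebf1, which define the early B lineage, were at or near 0, with highest values of 0.107, 0.0262 and 0.00612 FPKM. The labels name the line and no cell type. Among the markers of a pro-B line with IL-3 receptors, the IL-3 receptor genes were thus expressed and these 3 genes were not. Rag1 was not analysed here.

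Markers of other cell types were examined in the same way. The 5 listed genes of monocytes and macrophages summed to 43.5, 23.0 and 46.4 FPKM in control replicates 1, 2 and 3 and to 78.8, 53.0 and 87.2 FPKM in I13 replicates 1, 2 and 3. The most abundant of them was Adgre1, an adhesion receptor of macrophages, at 32 ± 12 FPKM in control and 64.3 ± 17.6 FPKM in I13 samples. Its log2 fold change of 1.05 was called elevated by limma when same-numbered samples were compared (adjusted p = 0.0308). It was not called by limma without this pairing (adjusted p = 0.18). Lyz2 averaged 1.55 and 2.82 FPKM and Cd68 averaged 4.08 and 5.83 FPKM, and neither was called. Csf1r and Mrc1, also on this list, stayed at or below 0.0702 and 0.0267 FPKM. Genes of T cells summed to at most 0.394 FPKM in any sample, those of fibroblasts to at most 0.13 FPKM and those of epithelial cells to at most 0.0329 FPKM. The part of the macrophage genes in the lipid results was not tested. In bulk samples fewer cells of a type and less RNA per cell cannot be told apart, and FPKM is relative to the total of each library.

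All 30 genes passed the filter on low values, a mean over the samples of no less than 0.5 FPKM, and entered the comparison. Since FPKM is a level per length, the members can be set in order. Scd2, a desaturase that makes monounsaturated fatty acids, was the highest in control samples, at a mean of 159 FPKM. In I13 samples its mean of 67 FPKM lay below those of Lbr (81.5), Acly (74.8) and Srebf2 (68.9). Acly, Srebf2, Lbr and Fasn had group means between 50.6 and 86.8 FPKM. Fdps and Tm7sf2 were the lowest, and every other gene of the set averaged at least 4.15 FPKM in both groups. The low level of Fdps rested on 36 to 101 fragments per sample, with exact Poisson intervals at 95% from 25.2 to 49.8 for the lowest and from 82.3 to 123 for the highest, which cover counting error only. For Tm7sf2 the fragments ran from 76 to 141 per sample. Whether reads of Fdps were shared with its processed copies elsewhere in the genome was not tested.

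**Figure D1:**
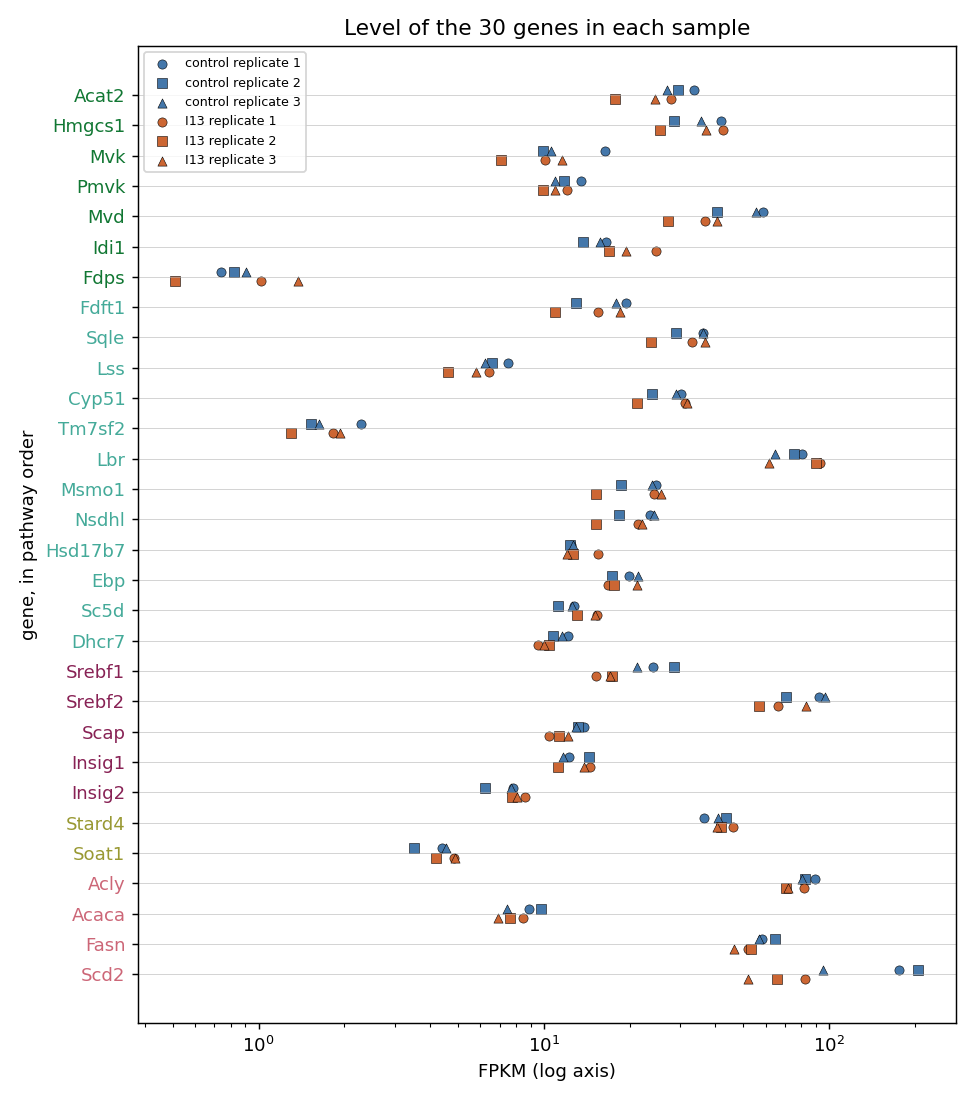
Expression of the 30 genes in each sample, with FPKM on a log axis, genes grouped by their step in the pathway, and points for the 3 control and the 3 I13 samples. The control samples of Scd2, 95.3 to 206 FPKM, all lay above its I13 samples, 52.2 to 82.8 FPKM.

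The comparison of I13 with control asked whether the expression of these genes changed on exposure. It used limma on log2(FPKM + 0.1) across the 12163 genes that passed the filter, a scale that understates the change of low genes. A call needed a Benjamini-Hochberg adjusted p below 0.05 together with a log2 fold change of 0.58 or more in size. None of the 30 genes was called by limma, 0 elevated and 0 decreased, against 0.0329% of all genes elevated and 0.00822% decreased, so that hardly any gene passed. These few calls rested on all 6 samples, and leaving out any 1 sample left between 0 and 2 calls among all genes. At an unadjusted p below 0.05, 1 of the 30 genes was higher and 5 were lower. The same held for 7.79% of all genes in the higher and 10.8% in the lower direction.

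Across the set, 21 genes (70.0%) had a log2 fold change below 0 and 9 above 0, while 50.8% of all genes tested were below 0. The median log2 fold change of the set was -0.13, beside -0.01 for all genes. This lean rested in part on single samples. Without I13 replicate 2, 15 of the 30 genes (50.0%) were below 0, beside 54.8% of all genes, and the median of the set was 0.013. Without control replicate 1, 17 (56.7%) were below 0, beside 53.1% of all genes, and the median was -0.061. For 2 of the genes, Idi1 and Sc5d, the I13 samples lay wholly above the controls, which was true of 9.82% of all genes. For 5, namely Dhcr7, Srebf1, Scap, Fasn and Scd2, they lay wholly below, which was true of 15.4% of all genes. These 5 make 16.7% of the set, a share near the background. The genes without overlap are therefore described singly and not as a property of the set.

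**Figure D2:**
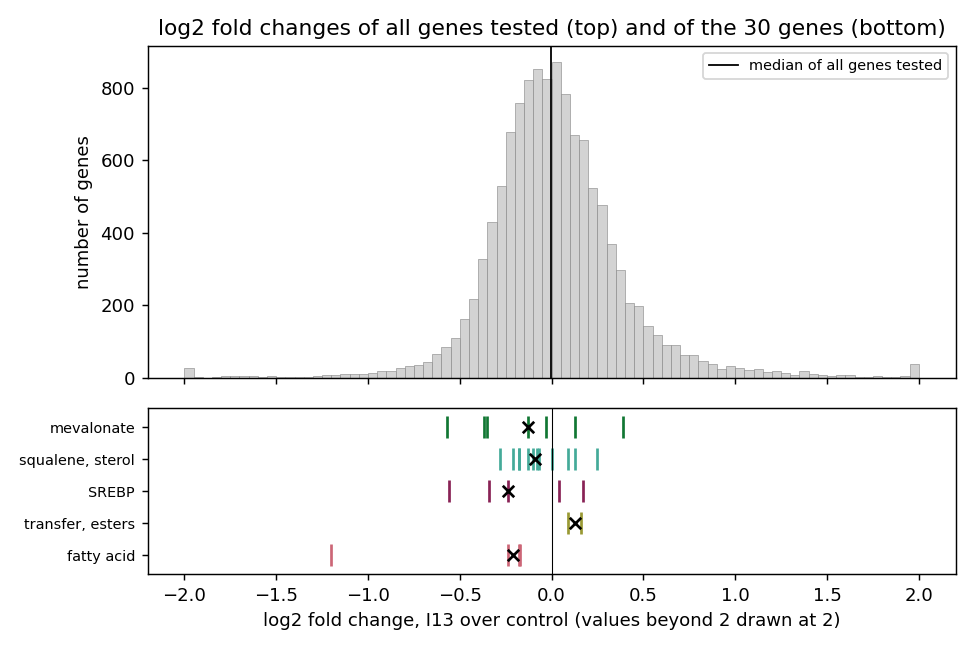
Distribution of the log2 fold change of I13 over control in all 12163 genes tested, with the 30 lipid genes marked below it by their step in the pathway. The genes lie around a median of -0.13, with Scd2 at -1.20 apart from the others.

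The replicate numbers were taken to pair the samples, because same-numbered control and I13 samples deviated weakly together from their group means. The labels tie no number to a batch or a day, so the calls of the fit with the block rest on this choice, made from the same data. With the replicate number as a block in the limma fit, which compares each I13 sample with the control of the same number, 1 of the 30 genes was called decreased and 0 elevated. In that fit 0.526% of all genes were decreased and 1.36% elevated. The called gene was Scd2. Scd2 and Mvd were lower at an adjusted p below 0.05 in this fit, as were 1.24% of all genes, but the log2 fold change of Mvd was smaller than 0.58 in size. At an unadjusted p below 0.05 the fit with the block placed 2 of the genes higher, against 13.2% of all genes, and 8 lower, against 14.8%. Limma with voom weights on the recovered fragments and with the block called the same gene, Scd2, and 0 elevated, where 1.05% of all genes were called decreased and 3.08% elevated. There 1 of the 30 genes, Idi1, was higher and 4, namely Scd2, Mvd, Srebf1 and Srebf2, were lower at an adjusted p below 0.05, against 6.61% and 5.78% of all genes. In 16 of the 30 genes (53.3%) the 3 pairs differed in the same direction, which was true of 51.5% of all genes, so the set as a whole was no more uniform over the pairs than other genes.

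**Figure D3:**
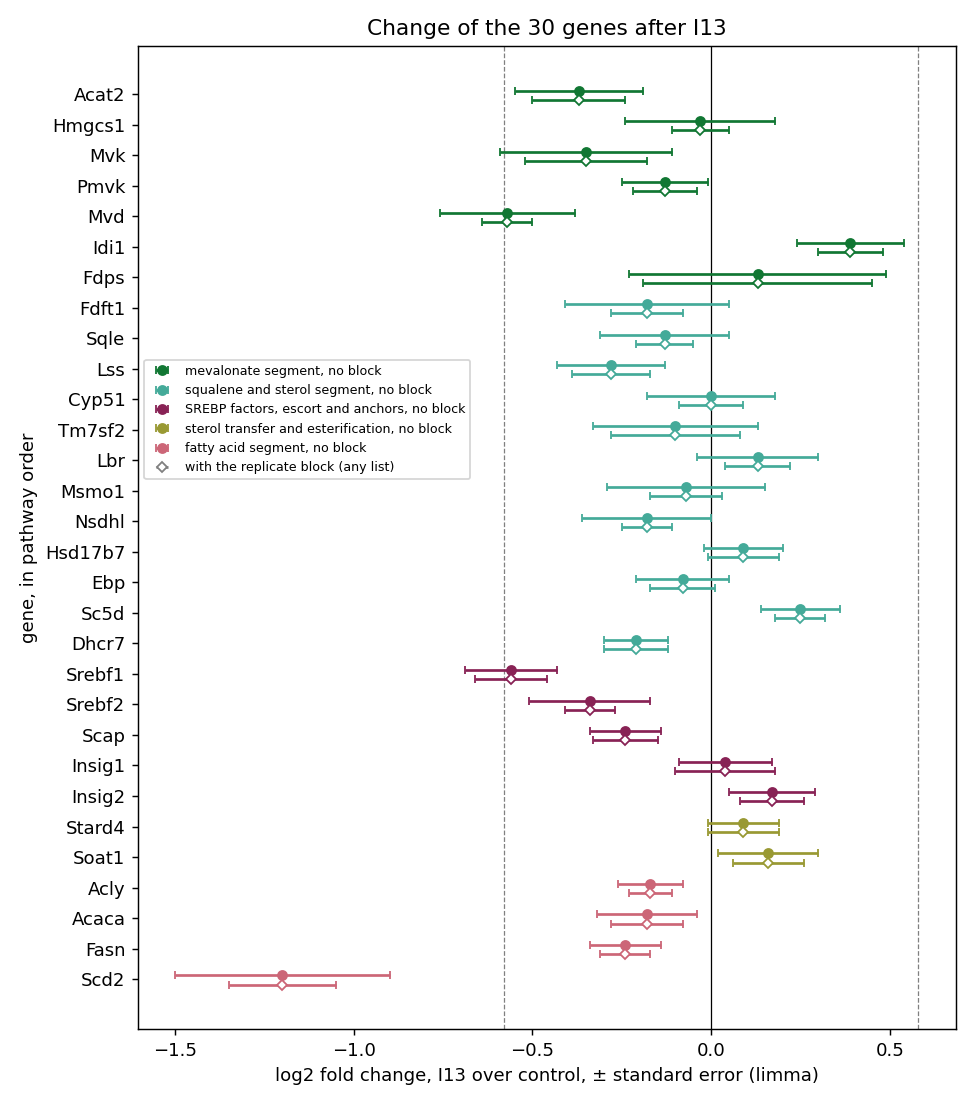
Log2 fold change of I13 over control for each of the 30 genes with bars of its standard error, from limma without the replicate block and with it, in the order of the pathway. The standard errors are smaller for many genes with the block, and Scd2 is the gene called decreased there.

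Among the enzymes of the mevalonate steps, 2 of 7 genes had a log2 fold change above 0 and 5 below 0, with a median of -0.13, and none was called by either fit. Acat2, which joins acetyl-CoA units in the cytosol, averaged 30 ± 3.35 FPKM in control and 23.5 ± 5.2 FPKM in I13 samples, with an adjusted p of 0.308 from limma. Its end overlaps Tcp1 on the opposite strand in the mouse, and whether the counting used strand is not given in the sources used here. Hmgcs1, which makes HMG-CoA, measured 41.8, 28.7 and 35.7 FPKM in control replicates 1, 2 and 3 and 42.5, 25.5 and 37.1 FPKM in I13 replicates 1, 2 and 3. The groups overlapped almost fully, and the log2 fold change was -0.03 with a 95% interval from -0.54 to 0.47 without and from -0.22 to 0.16 with the block. Mvk and Pmvk, the kinases that phosphorylate mevalonate in turn, had log2 fold changes of -0.35 and -0.13 with adjusted p of 0.474 and 0.596 from limma. When samples were left out, Mvk ranged from -0.59 to -0.12 and Pmvk from -0.20 to -0.05.

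Mvd, which decarboxylates mevalonate diphosphate to isopentenyl diphosphate, measured 58.6, 40.4 and 55.5 FPKM in control replicates 1, 2 and 3. In I13 replicates 1, 2 and 3 it measured 36.7, 27.2 and 40.5 FPKM. The groups met at control replicate 2 and I13 replicate 3, but each I13 sample was below the control of its own number, by -0.68, -0.57 and -0.45 on the log2 scale. Without the block the log2 fold change was -0.57 ± 0.19 (SE, n = 3 per group) with an adjusted p of 0.195 from limma. With the block the SE was 0.07 and the adjusted p was 0.0384. Leaving out a pair of samples from the fit with the block gave adjusted p between 0.0506 and 0.24.

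Idi1, which interconverts isopentenyl and dimethylallyl diphosphate, measured 16.6, 13.7 and 15.8 FPKM in control and 24.7, 17.0 and 19.5 FPKM in I13 replicates 1, 2 and 3. Here the I13 samples were all higher and the groups did not overlap, in the opposite direction to its neighbour Mvd in the pathway. The log2 fold change was 0.39 ± 0.15 (SE, n = 3 per group), with an adjusted p of 0.231 from limma without and 0.0702 with the block. It was therefore not called. Fdps, which makes farnesyl diphosphate, averaged 0.821 ± 0.083 FPKM in control and 0.969 ± 0.433 FPKM in I13 samples.

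Of the 12 genes of the squalene and sterol steps, 3 had a log2 fold change above 0 and 9 below 0, with a median of -0.09, and none was called by either fit. Fdft1, which condenses farnesyl diphosphate to squalene, averaged 16.8 FPKM in control and 15 FPKM in I13 samples. Sqle, the squalene epoxidase and a rate-limiting step, measured 36.1, 29.0 and 36.1 FPKM in control and 33.2, 23.8 and 36.7 FPKM in I13 replicates 1, 2 and 3. The groups overlapped, with replicate 2 the lowest in each. Its log2 fold change was -0.13 ± 0.18 (SE, n = 3 per group) with an adjusted p of 0.735 from limma.

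Lss closes the ring to lanosterol and had the log2 fold change of largest size among these 12 genes, -0.28 ± 0.15 (SE, n = 3 per group), with an adjusted p of 0.359 from limma. This order depended on the setting, since with TPM scaling Sc5d (0.28) was larger in size than Lss (-0.25). Cyp51, which removes the 14-alpha methyl group of lanosterol, averaged 27.8 ± 3.34 FPKM in control and 28.1 ± 5.99 FPKM in I13 samples. The 95% interval of its log2 fold change ran from -0.42 to 0.42 without the block and from -0.22 to 0.21 with it. Tm7sf2 and Lbr both reduce the sterol ring at carbon 14, and Lbr also ties chromatin to the nuclear envelope. Lbr averaged 73.7 FPKM in control and 81.5 FPKM in I13 samples, and Tm7sf2 averaged 1.81 and 1.69 FPKM. Msmo1, Nsdhl, Hsd17b7 and Ebp, which remove the remaining methyl groups and shift a double bond, had log2 fold changes between -0.18 and 0.09.

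Sc5d, which sets a late double bond of the ring, measured 12.8, 11.2 and 12.6 FPKM in control and 15.4, 13.1 and 15.1 FPKM in I13 replicates 1, 2 and 3. The I13 samples were all higher, by 0.27, 0.22 and 0.26 on the log2 scale within the numbered pairs. Its adjusted p was 0.272 from limma without and 0.108 with the block. Dhcr7, which makes cholesterol from its last precursor in this order, measured 12.2, 10.8 and 11.6 FPKM in control and 9.52, 10.4 and 10 FPKM in I13 replicates 1, 2 and 3. Its I13 samples were all lower, with a log2 fold change of -0.21 ± 0.09 (SE, n = 3 per group) and an adjusted p of 0.294 from limma. The last steps of the sterol pathway thus showed small differences in opposite directions, none of which passed the test.

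Among the genes that control the pathway, Srebf1 had the lowest unadjusted p of all 30 genes without the block. It measured 24.1, 28.6 and 21.3 FPKM in control replicates 1, 2 and 3. In I13 replicates 1, 2 and 3 it measured 15.3, 17.3 and 17.1 FPKM. Every I13 sample was below every control, and the mean in I13 samples was 0.671 of the control mean. The log2 fold change was -0.56 ± 0.13 (SE, n = 3 per group), with a 95% interval from -0.86 to -0.26. The adjusted p was 0.115 from limma without and 0.0529 with the block, and the log2 fold change did not reach 0.58 in size, so the gene was not called.

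Srebf2 measured 92.4, 70.8 and 97.1 FPKM in control and 66.4, 57.1 and 83.1 FPKM in I13 replicates 1, 2 and 3. The groups overlapped, although each I13 sample was below the control of its own number, by -0.48, -0.31 and -0.22 on the log2 scale. The log2 fold change was -0.34 ± 0.17 (SE, n = 3 per group), and the adjusted p was 0.339 from limma without and 0.0682 with the block. Scap, the escort of both SREBP precursors, measured 13.8, 13.2 and 13 FPKM in control and 10.4, 11.3 and 12.2 FPKM in I13 replicates 1, 2 and 3. The I13 samples were all lower, by a log2 fold change of -0.24 ± 0.10 (SE, n = 3 per group) with an adjusted p of 0.248 from limma.

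Insig1 and Insig2 code for the anchors that hold Scap in the endoplasmic reticulum, and Insig1 is itself a classical target of the SREBP factors. Insig1 measured 12.3, 14.4 and 11.7 FPKM in control and 14.5, 11.2 and 13.8 FPKM in I13 replicates 1, 2 and 3. Its groups overlapped, and the pairs went in different directions, with a log2 fold change of 0.04 and a 95% interval from -0.28 to 0.36. Insig2 measured 7.8, 6.21 and 7.65 FPKM in control and 8.58, 7.75 and 8.03 FPKM in I13 replicates 1, 2 and 3. Its log2 fold change was 0.17 ± 0.12 (SE, n = 3 per group) with an adjusted p of 0.471 from limma. The 3 genes that code for the factors and the escort were thus measured lower and the 2 for the anchors higher in the mean, and none of the 5 was called.

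Stard4, which carries cholesterol between membranes, averaged 40.3 ± 3.61 FPKM in control and 42.8 ± 2.92 FPKM in I13 samples. Soat1, which esterifies cholesterol for storage, averaged 4.15 ± 0.556 and 4.65 ± 0.398 FPKM. The log2 fold changes of 0.09 ± 0.10 and 0.16 ± 0.14 (SE, n = 3 per group) were both above 0, with adjusted p of 0.676 and 0.564 from limma.

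All 4 genes of fatty acid synthesis and desaturation had a log2 fold change below 0, with a median of -0.21, and Scd2 was called decreased in the fit with the block. Acly makes cytosolic acetyl-CoA from citrate and so feeds both pathways. It measured 89.2, 82.5 and 80.3 FPKM in control and 81.5, 71.0 and 71.8 FPKM in I13 replicates 1, 2 and 3. Acaca, which makes malonyl-CoA, measured 8.91, 9.82 and 7.41 FPKM in control and 8.44, 7.62 and 6.89 FPKM in I13 replicates 1, 2 and 3. For both genes the groups overlapped while every I13 sample was below the control of its own number, and the log2 fold changes were -0.17 ± 0.09 and -0.18 ± 0.14 (SE, n = 3 per group) with adjusted p of 0.369 and 0.512 from limma.

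Fasn, the synthase that builds palmitate, measured 58.1, 64.7 and 56.9 FPKM in control replicates 1, 2 and 3. In I13 replicates 1, 2 and 3 it measured 51.9, 53.3 and 46.6 FPKM. The groups did not overlap, and the difference was small, at 0.844 of the control mean. The log2 fold change was -0.24 ± 0.10 (SE, n = 3 per group), with an adjusted p of 0.236 from limma without and 0.0926 with the block.

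Scd2 measured 176, 206 and 95.3 FPKM in control replicates 1, 2 and 3, from 17031, 19764 and 9160 fragments. In I13 replicates 1, 2 and 3 it measured 82.8, 65.9 and 52.2 FPKM, from 7956, 6023 and 4984 fragments. All I13 samples were lower than all controls, although the controls themselves spread widely and control replicate 3 lay near the I13 samples. The mean of 159 ± 57.1 FPKM (SD, n = 3) in control compared with 67 ± 15.3 FPKM in I13 samples, a ratio of 0.421. Scd2 thus had the largest change in size among the 30 genes, at a log2 fold change of -1.20 ± 0.30 (SE, n = 3 per group), with a 95% interval from -1.9 to -0.5. Without the block its adjusted p was 0.124 from limma. With the block the SE was 0.15 and the adjusted p was 0.0384. Within the numbered pairs Scd2 differed by -1.09, -1.64 and -0.87 on the log2 scale. Without pair 1, 2 or 3 in turn the fit with the block gave log2 fold changes of -1.25, -0.98 and -1.36 with adjusted p of 0.0479, 0.139 and 0.0605 from limma, so the call was kept without pair 1 only. Its paralog Scd1, the main form in liver and fat, was between 0 and 0.0469 FPKM, at most 4 fragments in any sample.

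**Figure D4:**
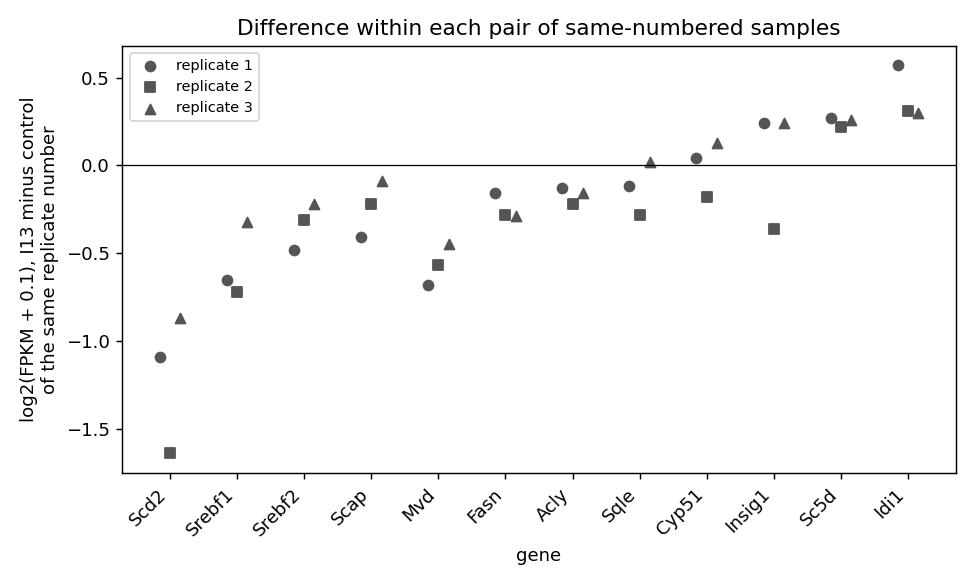
Difference in log2(FPKM + 0.1) between each I13 sample and the control of the same replicate number, for selected genes, with a point for each pair. The points of Scd2 are all negative, at -1.09, -1.64 and -0.87 for replicates 1, 2 and 3.

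The genes of sterol synthesis shared a further pattern, which was noticed after the values were seen and was not tested. Replicate 2 was the lowest sample of both groups in 11 of the 19 sterol enzymes (57.9%), and in 13.6% of all genes tested. These were Hmgcs1, Mvk, Mvd, Idi1, Fdft1, Sqle, Cyp51, Tm7sf2, Msmo1, Nsdhl and Sc5d. Their mean level in the replicates numbered 2 was between 0.668 (Fdft1) and 0.870 (Sc5d) of that in the replicates numbered 1 and 3. Ratios below 1 follow from how these genes were picked. In the other sterol enzymes the ratio ran from 0.714 (Fdps) to 1.10 (Lbr). Replicate 2 was also the lowest of both groups in Srebf2, with a ratio of 0.755, in Insig2 and in Soat1, and in none of the 4 fatty acid genes. For Scd2 the ratio was 1.25, with replicate 2 the highest of the controls and the middle one of the I13 samples.

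Each gene's variation among the 6 samples was divided between condition (1 degree of freedom), replicate number (2) and the rest (2), so that the replicate number takes the larger share by its degrees of freedom alone and the shares are read beside those of all genes. In the sterol enzymes the median share was 63.0% for the replicate number and 14.8% for the condition, beside 42.2% and 25.9% over all genes tested. The replicate number took the larger share in 13 of these 19 genes (68.4%) and in 59.5% of all genes. Hmgcs1, Cyp51 and Msmo1 stood at one end, with 96.2%, 90.9% and 89.6% for the replicate number, and Dhcr7 at the other, with 73.3% for the condition. The fatty acid genes were not alike in this respect. In Scd2 the condition took 70.4% and the replicate number 24.5%, and in Fasn 68.7% and 27.6%. In Acly the shares were 53.7% and 43.8%, and in Acaca the replicate number took more, 57.6% against 28.2%. Srebf1 and Srebf2 also differed, with 81% for the condition in the former and 38.8% in the latter. What a replicate number shares, such as a day or a culture, is not given in the labels, and its part in these differences was not tested.

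**Figure D5:**
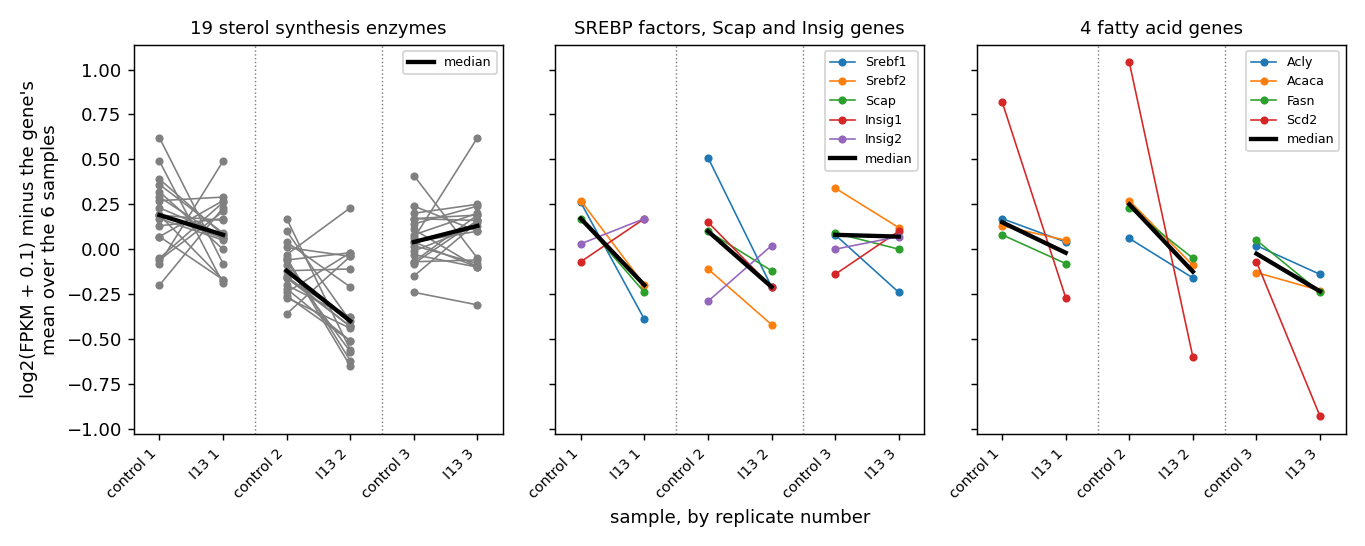
Log2 level of each gene minus its mean over the 6 samples, by sample, for the sterol enzymes, the genes of the SREBP factors, escort and anchors, and the fatty acid genes. A heavy line gives the median over the genes of a panel in each sample. The median of the sterol enzymes was -0.12 in control replicate 2 and -0.40 in I13 replicate 2, whereas that of the fatty acid genes was 0.25 and -0.12.

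Other genes of lipid metabolism were taken from 9 lists with 89 genes, of which 74 passed the filter. Of these 74, 32 had a log2 fold change above 0 and 42 below 0, with a median of -0.05, and none was called by limma without the block. At an unadjusted p below 0.05, 4 (5.41%) were higher and 15 (20.3%) lower, beside 7.79% and 10.8% of all genes. With the block 2 (2.7%) were called elevated, Lipa and Acsl4, and 1 (1.35%) decreased, Abca1, beside 1.36% and 0.526% of all genes.

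In the isoprenoid branch, 5 of 9 genes were above 0 and 4 below 0, with unadjusted p below 0.05 for Nus1 (log2 fold change 0.35), a subunit of the dolichol-making transferase, and Fnta (-0.28), a subunit of farnesyl transferase. Of 11 genes of SREBP processing and sterol-regulated degradation, 3 were above 0 and 8 below 0, and Faf2, which helps draw proteins out of the endoplasmic reticulum for degradation, had a log2 fold change of -0.34 with an adjusted p of 0.181 from limma.

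Genes of sterol traffic gave 2 of the 3 calls in the fit with the block. Of 8 tested genes of uptake and lysosomal export, 4 were above 0 and 4 below 0. Lipa, the lysosomal acid lipase that frees cholesterol from its esters, measured 14.6, 10.8 and 18.2 FPKM in control and 24.7, 18.5 and 23.9 FPKM in I13 replicates 1, 2 and 3. Each I13 sample exceeded all controls, and the log2 fold change was 0.64 ± 0.21 (SE, n = 3 per group) with an adjusted p of 0.179 from limma without and 0.0471 with the block. Of 5 tested genes of LXR and sterol export, 1 was above 0 and 4 below 0. Abca1, the pump that loads cholesterol onto lipoprotein, measured 5.32, 9.36 and 2.7 FPKM in control and 2.09, 3.93 and 1.02 FPKM in I13 replicates 1, 2 and 3. The groups overlapped because the replicate numbers differed widely, yet the pairs differed by nearly the same amount, -1.31, -1.23 and -1.32 on the log2 scale. Its adjusted p was 0.275 from limma without and 0.0308 with the block.

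Rxrb, a partner of LXR, averaged 21.2 ± 0.29 FPKM in control and 15.6 ± 1.95 FPKM in I13 samples, with an adjusted p of 0.12 from limma. Of 10 tested genes of sterol transfer, esterification and binding, 5 were above 0 and 5 below 0. The lowest p were those of Osbp, a sterol carrier between endoplasmic reticulum and Golgi, and Soat2, a further esterifying enzyme, with log2 fold changes of -0.26 and -0.64 and adjusted p of 0.188 and 0.255 from limma.

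Around fatty acid synthesis, 11 genes of elongation and desaturation were tested, 6 above 0 and 5 below 0. Fads1, the delta-5 desaturase of polyunsaturated fatty acids, averaged 78.7 ± 1.8 FPKM in control and 61.1 ± 4.36 FPKM in I13 samples, with an adjusted p of 0.116 from limma without and 0.0536 with the block, and 0.0186 with voom weights in the latter. Fads2, the delta-6 desaturase, averaged 102 ± 3.44 and 86.2 ± 3.47 FPKM, with an adjusted p of 0.186 from limma. Degs1, a desaturase of the ceramide pathway, lay in the other direction, at 60.3 ± 16.2 FPKM in control and 85.8 ± 23.8 FPKM in I13 samples. Its log2 fold change was 0.51 ± 0.25 (SE, n = 3 per group), with an adjusted p of 0.321 from limma without and 0.0618 with the block. Voom weights in the latter fit gave an adjusted p of 0.0156 from limma, at a log2 fold change under 0.58. The desaturases outside the set thus differed in direction, and none was called. In mitochondrial fatty acid synthesis 3 of 5 tested genes were above 0 and 2 below 0, and these 2, Mcat and Mecr, had the lowest p, with log2 fold changes of -0.37 and -0.34.

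Of 13 genes of fatty acid activation and precursor supply, 5 were above 0 and 8 below 0, with a median of -0.21. Acsl4, which activates arachidonic acid, measured 35.6, 32.6 and 35.6 FPKM in control and 62.8, 47.8 and 58.5 FPKM in I13 replicates 1, 2 and 3. The groups were well apart, with a log2 fold change of 0.69 ± 0.12 (SE, n = 3 per group) and an adjusted p of 0.0989 from limma without and 0.0361 with the block. Acacb, the mitochondrial relative of Acaca, averaged 5.66 ± 0.458 FPKM in control and 4.14 ± 0.302 FPKM in I13 samples, and Mlycd, which breaks malonyl-CoA down, averaged 9.53 ± 0.576 and 7.1 ± 0.991 FPKM. Both were lower in the mean and had adjusted p of 0.133 and 0.157 from limma. Leaving out each pair in turn from the fit with the block gave adjusted p between 0.0623 and 0.272 for Lipa, 0.0364 and 0.195 for Abca1, and 0.0431 and 0.165 for Acsl4, with the calls of the last pair of genes kept without pair 1 only.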

How the data were processed

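The study extracted total RNA with Trizol from BaF3-T315I cells and made libraries with the TruSeq Stranded mRNA kit. The authors deposited FPKM per gene and sample, with replicates not pooled. The submitters' processing notes name Trimmomatic, HISAT2, Cufflinks and HTSeq without versions, and the build hg38, and the organism label is human. The gene identifiers are those of mouse, and the study describes a murine line, so the values were read as mouse genes. The annotation and the use of strand are not given in the sources used here. Coordinates and sequences are left out because no genome of the mouse was used.

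Groups and replicate numbers were taken from the labels, and the number of sample columns that could not be assigned was 0. Whole fragments and gene lengths that give the FPKM of all 6 samples were recovered for 22413 of 22413 genes (100% within a relative tolerance of 3e-08). The library totals followed from them, with 99.47% to 99.5% on the listed genes. Depth limits the precision of the low genes, whose exact Poisson intervals cover counting error only.

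Values were tested as log2(FPKM + 0.1) in limma 3.58.1 (R 4.3.3), using eBayes with a mean-expression trend, after removal of genes whose mean was under 0.5 FPKM. The thresholds, an adjusted p of 0.05 (Benjamini-Hochberg) and an absolute log2 fold change of 0.58, are those of the study, which names no test. In a simulation, fragments were drawn independently, with the same dispersion for every gene and no effect of the replicate number. There 12153 genes were tested, of which 191 had a true log2 change of 1 in size. The fit recovered 111 of these (58.1%) and called 8 unchanged genes. Adding the replicate block gave 97 (50.8%) and 11. Because no replicate effect was simulated, these counts do not show what the block does in the present data.

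Group means were subtracted from each sample to check the pairing. Across genes, the residuals correlated at 0.15, 0.30 and 0.22 for samples numbered 1, 2 and 3, and -0.26 to 0.05 for differently numbered samples. Every same-number value was above 0.1, so the numbers in the labels were taken to pair the samples, although the labels tie no number to a batch or a day. Residuals within a group cancel for each gene, so these correlations are not independent of each other. The fit with the block has 2 residual degrees of freedom.

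The alternatives were other pseudocounts, filters and scalings, eBayes without trend, the replicate block, voom on the recovered fragments with and without the block, and leaving out each sample or pair. The members and lists were chosen with earlier results of these data known. All 30 genes are named. Values in every sample are given for the 8 members with the lowest p, for members called in either fit and for genes of the SREBP factors, anchors, fatty acid synthesis and Sqle. From the other lists at most 3 genes with the lowest unadjusted p below 0.05 are named, with those called and with Scd1, and some genes of this rule are not reported here. Degs1 and the values in every sample for Hmgcs1, Lipa, Abca1 and Acsl4 were chosen after seeing the data. The 5 marker lists cover pro-B cells with IL-3 receptors, monocytes and macrophages, T cells, fibroblasts and epithelial cells. Plots used matplotlib 3.10.9 (Python 3.11.15).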

Additional observations from a re-analysis of the deposited data

How the results depend on the processing

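With 3 samples per group the precision is limited, and none of the 30 genes was called elevated under any setting of limma run here. The count called decreased was 0 and became 1, Scd2, with the replicate block, with voom and the block, and with the block without replicate 1, so it ranged from 0 to 1 when samples were left out. With voom and the block Scd2 had an adjusted p of 0.00159 and the set had 11 genes (36.7%) lower and 2 (6.67%) higher at an unadjusted p below 0.05, beside 15.4% of all genes in each direction. The count of genes lower, 5, became 8 with the block, 3 with TPM scaling and 3 with eBayes without trend, and ranged from 2 to 9 when samples were left out. The count of genes higher, 1, became 2 with the block, TPM scaling, voom or no filter, and 0 with eBayes without trend, and ranged from 0 to 2 when samples were left out. The replicate block changed no other call of the 30 genes.

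The median log2 fold change of the set, -0.128, lay between -0.145 and -0.099 under the other settings and between -0.197 and 0.013 when samples were left out. It was above 0, at 0.013, without I13 replicate 2. The sign of Cyp51 was reversed with TPM scaling (0.02), median-ratio scaling (0.01) and quantile normalization (0.01), and it ranged from -0.11 to 0.19 when samples were left out. Leaving out samples also reversed the sign of Hmgcs1 (-0.19 to 0.18), Msmo1 (-0.21 to 0.17), Tm7sf2 (-0.26 to 0.07), Fdft1 (-0.35 to 0.03), Sqle (-0.25 to 0.06), Fdps (-0.15 to 0.49), Insig1 (-0.06 to 0.24), Hsd17b7 (-0.02 to 0.17), Ebp (-0.18 to 0.00) and Stard4 (-0.03 to 0.16). Within these ranges, Hmgcs1 was at 0.04, Cyp51 at 0.08 and Msmo1 at 0.04 in the fit with the block without replicate 2, Fdps was at -0.08 in the fit with the block without replicate 3, Tm7sf2 was at -0.20 without I13 replicate 3, and Insig1 was at 0.15 without I13 replicate 2. The cause was not tested. The scalings moved the median of all genes to between -0.021 and 0.029.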
